A study of Mus musculus with 3 samples.

Results

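Histone modifiers and chromatin remodellers are the enzymes, readers and motors that set how tightly DNA is packed around histones. Members were the array probes, other than controls, whose gene name in the scanner files began with Hdac, Sirt, Setd, Suv, Ehmt, Jmjd, Jarid, Kdm, Smyd, Prmt, Mll, Smarc, Chd, Ing or Brd (with the digit or ending that the family's names carry), on an autosome or the X chromosome. The rule found 213 of 41174 probes, for 96 of 27672 genes, and used names and positions and no measured value. Gene names here are current symbols, with the older name of the files in brackets where it differs.

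RNA of mouse neural stem cells (NSCs) with the genotype Dnmt3a-/- (labelled KO, dye Cy3) was hybridised on 3 two-colour arrays against RNA of wildtype NSCs (labelled WT, dye Cy5). Both kinds of NSC had been differentiated in culture from mouse embryonic stem cells, through neurospheres to adherent bipolar cells, and both were kept in EGF and bFGF. The labels call each array a biological replicate. They do not say how many cell lines or clones stand behind them, at which passage the RNA was taken or how much of Dnmt3a was deleted. The comparison asked how the loss of Dnmt3a, which methylates DNA at unmethylated sites, changes expression in these cells, in a study of their proliferation and differentiation.

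Histones carry acetyl and methyl groups that writers add, erasers remove and readers bind. Histone deacetylases and many lysine 9 methyltransferases of histone H3 are known for silencing, and lysine 4 methyltransferases for active promoters. Remodellers use ATP to slide or evict nucleosomes. In neural stem cells the BAF complex, the mammalian SWI/SNF remodeller, is known to change subunits as progenitors become neurons, and CHD7 and CHD8 are known from human developmental disorders.

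The array checks touch every direction below. Dnmt3a itself had log2 ratios (KO label over WT label) of 1.07, 0.97 and 0.92 on arrays 1, 2 and 3 at its brightest probe (adjusted p = 9.4e-07), that is, more signal in the RNA labelled KO, and its other 2 probes stood at 0.61 and 0.76. This goes against the label unless the probes lie outside the deleted part, which the labels do not give, so each direction is given by the labels of the 2 RNAs. No array had the dyes exchanged, so dye and genotype cannot be told apart for a single probe. In bulk RNA, fewer cells of a type and less RNA per cell cannot be told apart either. Of the defining NSC markers, Vim, Fabp7 and Nes were bright in both channels, at mean log2 intensities of 15.0, 13.9 and 12.2 for labelled KO, while Slc1a3 (9.37), Msi1 (8.84), Sox2 (8.54) and Prom1 (7.62) were dimmer. The transcription factors Olig2, Pax6 and Sox1 were dim, at 6.89, 6.63 and 6.58 for labelled KO and 7.52, 6.39 and 6.50 for labelled WT. All 10 NSC markers were bright enough to test. The glial marker Gfap, the embryonic stem cell markers Pou5f1, Nanog and Zfp42 and the microglial marker Aif1 were not, but others of their lists were. Over both channels, mean log2 intensities were 10.8 for Gja1 and 8.05 for Aldh1l1 (astrocyte). Dppa5a and Utf1 (embryonic stem cell) stood at 7.51 and 7.16, and Tyrobp (microglia) at 7.43. The remaining tested markers of these lists stood at 6.20 to 6.84. Fibroblast genes were bright as well, and 6 of 7 were lower in the RNA labelled KO, as were 9 of 10 genes of dividing cells. Of the markers bright enough to test, 3 of 7 neuronal, 2 of 5 astrocyte, 1 of 5 oligodendrocyte, 1 of 3 microglial and 0 of 3 endothelial genes were lower, and 1 of 4 embryonic stem cell genes was higher. The shares over all tested genes were 25.5% lower and 22.5% higher.

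As a class, these genes differed little. Of the 96 genes, 93 were bright enough to test. The threshold was passed by 25 in the higher and 23 in the lower direction, and 45 did not pass it (limma, adjusted p under 0.05 over all 18035 genes tested). The 48 members past the threshold are 51.6% of those tested, against 48% of all tested genes. By direction, 22.5% of all tested genes were higher and 25.5% lower. Without replicate 3, 11 members were lower in place of 23 (11.8%, against 19.4% of all genes), and 19 higher in place of 25 (20.4% against 17.3%). None of the 93 members reached a 1.5-fold difference, against 3.99% of all tested genes past the threshold at that size. The 95% interval of the ratio lay within 1.5-fold in both directions for all 93 members, and for 94.3% of all tested genes. The members' median log2 intensity was 9.82 against 8.34 for all genes. Between the members' quartiles of intensity, 26 of 47 members (55.3%) and 3220 of all 5424 tested genes (59.4%) were past the threshold, and 5.42% of those genes were past it with at least 1.5-fold.

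The members' median log2 ratio was 0.0040, against -0.011 for all tested genes, and 0.021, 0.020 and -0.0057 on the 3 arrays. Their median absolute ratio was 0.11 against 0.098. A member's ratio kept its sign on all 3 arrays for 66 of 93 genes, or 71.0%, against 69.1% of all tested genes. The median SD between arrays was 0.051 for members and 0.056 for all genes. The p-values measure the spread between these 3 arrays.

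The direction of the small ratios rested on how the arrays were scaled. All ratios given here are after loess normalization, which removes a trend of the ratio with brightness. With each array only centred on the median of its spots, the median of all tested genes moved to -0.26 and that of the members to -0.36. Of all genes, 4.05% were then higher and 52.0% lower, so a ratio above 0 with loess could turn by this shift alone. In that setting 22 of the 25 higher members were below 0, and 14 members (15.1%) were past the threshold with at least 1.5-fold, against 14.7% of all genes. With the median of the tested genes at 0 instead, without loess, 7 of the 25 remained called higher and 10 were below 0, while 21 of the 23 lower members remained called. That setting, chosen after seeing the data, had 14.0% of members higher and 38.7% lower, against 33.5% and 31.4% of all genes. It put 1 member past 1.5-fold, Jarid2 at -0.62, against 5.18% of all genes.

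**Figure D1:**
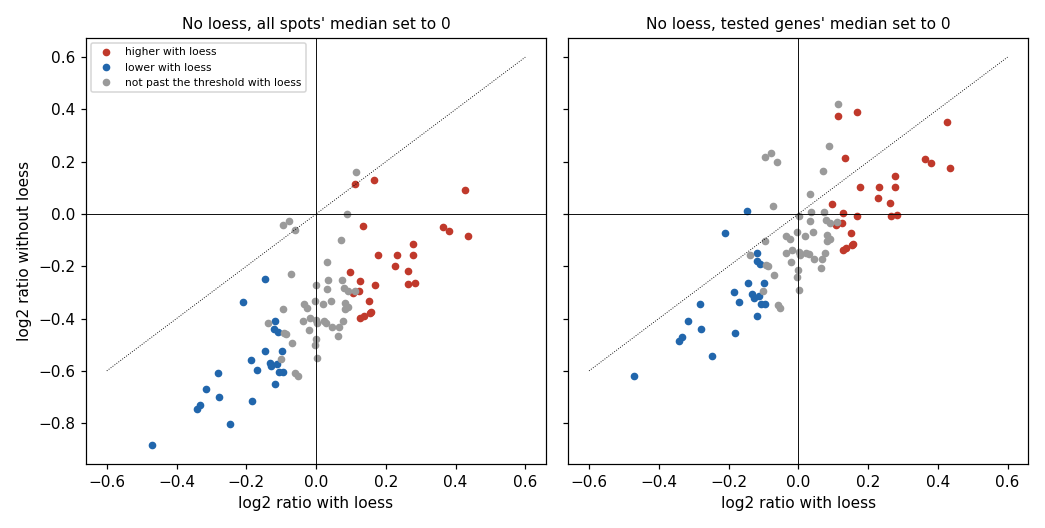
Each of the 93 tested members' log2 ratios after loess (horizontal axis) against its log2 ratio without loess (vertical axis), with the median of all spots (left) or of the tested genes (right) set to 0; colours give the call with loess and the dotted line marks equal values. Nearly all points lie below the line on the left, where the median of all tested genes is itself -0.26 and 22 of the 25 members called higher with loess are below 0. On the right, 10 of those 25 are below 0 and 1 of the 23 members called lower is above 0.

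Of the 48 calls, 18 held in every alternative that kept loess or the scanner's own dye normalization, 12 of them higher and 6 lower. The 6 lower members, Jarid2, Smarcad1, Chd7, Sirt1, Prmt6 and Smarca2, were also called without loess when the tested genes' median was at 0. Of the 12 higher members, Prmt2, Sirt5 and Sirt2 kept their call with the tested genes' median at 0, and of these only Sirt5 was above 0, at 0.090, with centring on all spots.

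**Figure D2:**
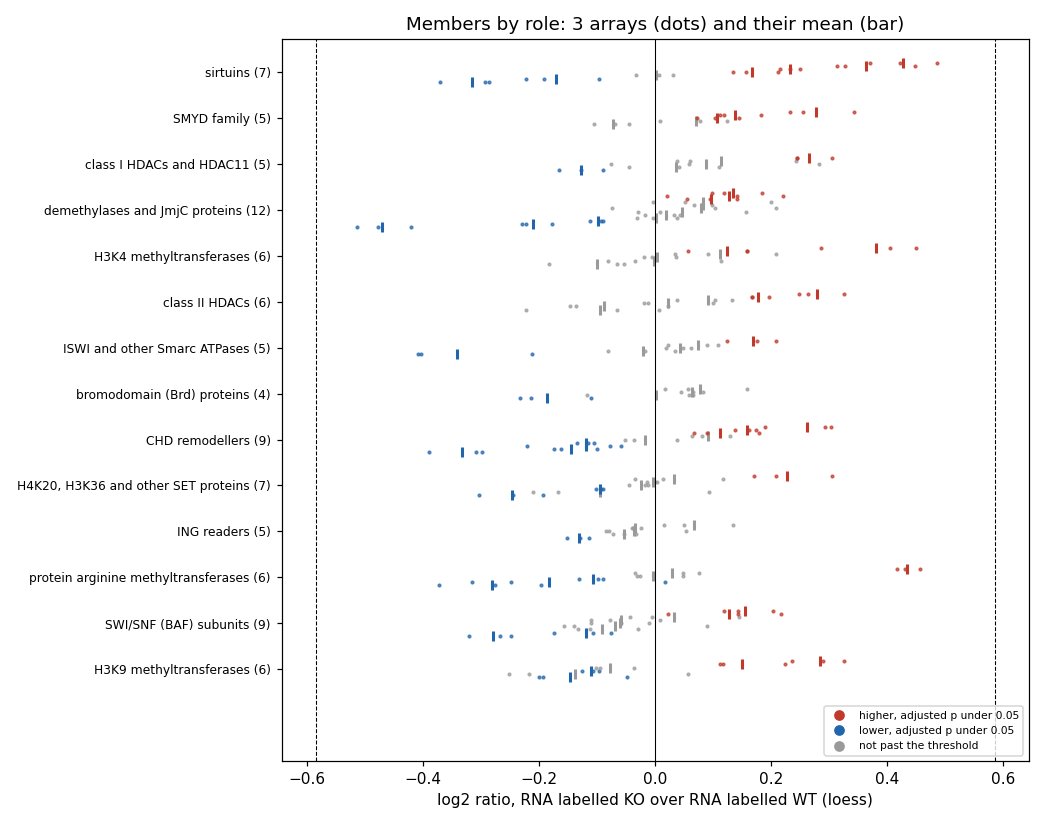
Log2 ratios (KO label over WT label) after loess for 92 of the 93 tested members (dots, 3 arrays; bars, their mean), grouped by role with the number drawn in brackets; dashed lines mark 1.5-fold and colours the call at adjusted p under 0.05. Every mean lies between -0.47 (Jarid2) and 0.43 (Prmt2), inside the dashed lines, and without loess 10 of the 25 higher members fall below 0 with the tested genes' median at 0, or 22 with the median of all spots at 0, which shifts all genes down.

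**Figure D3:**
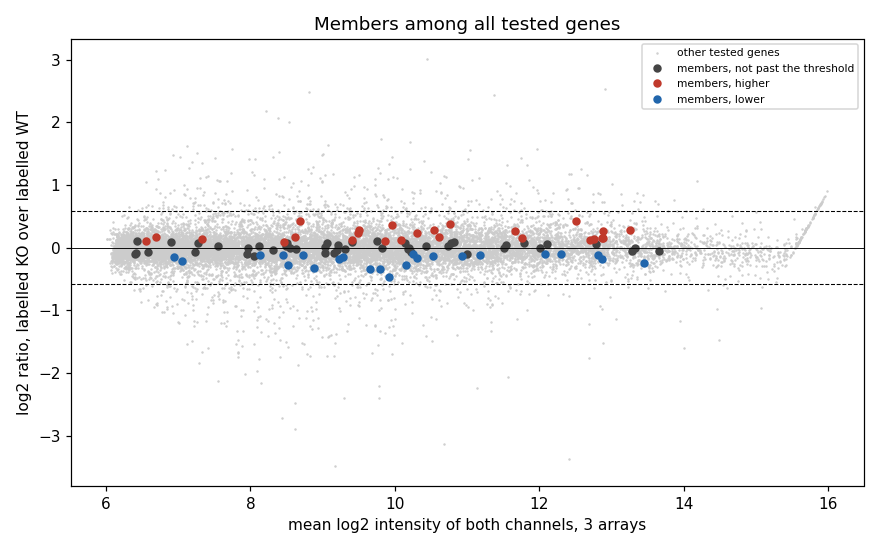
Mean log2 ratio (KO label over WT label) after loess (vertical axis) against mean log2 intensity (horizontal axis) for all 18035 tested genes (grey) and the 93 members (colours by call); dashed lines mark 1.5-fold. Members span intensities from 6.40 to 13.7 and stay within the dashed lines, while 3.99% of all genes are past the threshold and outside them, and the higher members' direction depends on loess as given in the text.

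Deacetylases remove acetyl groups from histones and other proteins. Of the class I enzymes, which work in large corepressor complexes, Hdac1 was higher, with log2 ratios of 0.24, 0.25 and 0.30 on arrays 1, 2 and 3, a mean of 0.27 ± 0.035 (SD, n = 3, adjusted p = 0.0004). All 3 arrays lay close together, but without loess and with the tested genes' median at 0 Hdac1 stood at -0.0082. Hdac3, a class I enzyme of corepressor complexes, was lower at -0.13 ± 0.038 (adjusted p = 0.015). Hdac2 at 0.035 (95% interval -0.055 to 0.13), Hdac8 at 0.088 and the class IV enzyme Hdac11 at 0.11 were not past the threshold. Hdac8 ran from -0.076 on array 3 to 0.28 on array 1.

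Class II deacetylases include shuttling regulators and the tubulin deacetylase Hdac6. Hdac5, a shuttling class IIa enzyme, had ratios of 0.26, 0.32 and 0.25 and a mean of 0.28 ± 0.041 (adjusted p = 0.00034). Hdac6 was at 0.20, 0.17 and 0.17, with a mean of 0.18 ± 0.017 (adjusted p = 0.0026). Both were above 0 on every array, yet both at -0.16 with centring on all spots. Hdac4 at 0.091, Hdac7 (Hdac7a) at 0.023, Hdac10 at -0.087 and Hdac9 at -0.094 were not past the threshold. In the fit over all probes, 1 of 2 tested probes of Hdac7 was higher, with the highest at 0.23. For Hdac9, 1 of 2 was lower, with the lowest at -0.11.

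The sirtuins, NAD-dependent deacylases of the nucleus, cytoplasm and mitochondria, went both ways, and 6 of 7 were past the threshold, 4 higher and 2 lower. Of all tested genes 48% were past it, 22.5% higher and 25.5% lower. Their median ratio was 0.17. Sirt5, a mitochondrial enzyme that removes succinyl groups, had ratios of 0.37, 0.49 and 0.42 and a mean of 0.43 ± 0.058 (SD, n = 3, adjusted p = 5.0e-05), or 1.34-fold higher. Sirt2, a mostly cytoplasmic tubulin deacetylase, had 0.45, 0.31 and 0.33 with a mean of 0.36 ± 0.074 (adjusted p = 0.00017), and all 3 of its tested probes were higher, at 0.18 to 0.48. Mitochondrial Sirt4 was at 0.23, 0.25 and 0.22 with a mean of 0.23 ± 0.017 (adjusted p = 0.00065). Nuclear Sirt6 was at 0.17 ± 0.039. Without loess and with the tested genes' median at 0, Sirt6 stood at 0.39, Sirt5 at 0.35 and Sirt2 at 0.21. Sirt4 stood at 0.10 there, not past the threshold. With centring on all spots, Sirt6 stood at 0.13, Sirt5 at 0.090, Sirt2 at -0.049 and Sirt4 at -0.16, none past the threshold. Sirt1, the nuclear deacetylase of histones and p53, was lower, with -0.29, -0.37 and -0.29 and a mean of -0.32 ± 0.047 (adjusted p = 0.0002), or 1.24-fold, and both of its probes were lower. The mitochondrial deacetylase Sirt3 was at -0.22, -0.10 and -0.19 with a mean of -0.17 ± 0.066 (adjusted p = 0.0065), and nucleolar Sirt7 was at 0.0013, not past the threshold. The ratios of Sirt1 and Sirt3 were below 0 and those of Sirt2, Sirt4, Sirt5 and Sirt6 above 0 on all 3 arrays. The calls of Sirt1, Sirt2, Sirt4 and Sirt5 held in every alternative with loess or the scanner's dye normalization. Those of Sirt3 and Sirt6 did not (limma, highest adjusted p = 0.14 and 0.13).

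Arginine methyltransferases held the highest member and one of the lowest. Prmt2, a weakly active enzyme known as a nuclear receptor coactivator, had ratios of 0.42, 0.46 and 0.43, a mean of 0.43 ± 0.020 (SD, n = 3, adjusted p = 2.4e-05), or 1.35-fold, by its 1 probe on chromosome 10, 75862986 to 75862927 (mm7). It was bright, at log2 intensities of 12.7, 12.7 and 12.8 for labelled KO and 12.3, 12.2 and 12.3 for labelled WT. These intensities were rebuilt from the loess ratios and are no separate check of them. Prmt2 stood at -0.084 with centring on all spots. Prmt6, which methylates arginine 2 of histone H3, was lower with -0.20, -0.37 and -0.28 and a mean of -0.28 ± 0.087 (adjusted p = 0.00087), and its 4 tested probes were all lower, at -0.28 to -0.14. Prmt1, the main asymmetric arginine methyltransferase, had 0.017, -0.25 and -0.32 and a mean of -0.18 ± 0.18 (adjusted p = 0.039), so that array 1 did not share the sign of the others. Prmt7 was lower at -0.11 ± 0.022, while Prmt5 at 0.030 and Prmt3 at -0.0029 were not past the threshold and Prmt8, a brain enzyme, was too dim to test.

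Promoter sequence is shown for the 2 highest and the 2 lowest members past the threshold that have a single promoter in the RefSeq table (build GRCm38.p6), because Dnmt3a acts on CG dinucleotides. Each line gives the 250 bases before the start of transcription, 5′ to 3′ on the gene's strand, with each CG in capitals.

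Prmt2 (higher, mean 0.43; chr10:76237866-76238115, minus strand, 14 CG): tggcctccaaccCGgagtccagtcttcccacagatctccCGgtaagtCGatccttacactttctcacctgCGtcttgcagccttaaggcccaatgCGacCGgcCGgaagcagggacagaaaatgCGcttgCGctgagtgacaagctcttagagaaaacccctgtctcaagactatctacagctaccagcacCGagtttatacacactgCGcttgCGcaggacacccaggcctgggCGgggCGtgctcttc
Sirt5 (higher, mean 0.43; chr13:43365285-43365534, plus strand, 13 CG): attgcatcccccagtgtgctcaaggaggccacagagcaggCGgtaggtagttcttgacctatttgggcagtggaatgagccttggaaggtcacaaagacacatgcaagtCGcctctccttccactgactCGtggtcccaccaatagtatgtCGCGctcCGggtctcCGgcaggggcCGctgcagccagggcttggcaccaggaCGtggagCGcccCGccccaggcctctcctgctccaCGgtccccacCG
Sirt1 (lower, mean -0.32; chr10:63339036-63339285, minus strand, 39 CG): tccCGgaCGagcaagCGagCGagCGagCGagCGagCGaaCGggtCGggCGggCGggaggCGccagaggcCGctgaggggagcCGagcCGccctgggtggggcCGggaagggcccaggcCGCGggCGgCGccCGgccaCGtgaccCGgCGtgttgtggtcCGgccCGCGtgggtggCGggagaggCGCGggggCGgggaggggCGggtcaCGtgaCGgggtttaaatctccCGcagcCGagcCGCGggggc
Prmt6 (lower, mean -0.28; chr3:110251000-110251249, minus strand, 13 CG): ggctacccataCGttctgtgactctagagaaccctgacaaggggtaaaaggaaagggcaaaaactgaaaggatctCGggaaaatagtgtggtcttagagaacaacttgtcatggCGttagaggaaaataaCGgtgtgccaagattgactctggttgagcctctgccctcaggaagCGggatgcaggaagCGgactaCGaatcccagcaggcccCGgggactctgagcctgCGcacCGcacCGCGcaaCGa

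Sirt1 held 39 CG in this stretch and the others 13 or 14. The table matched 77 of the 93 tested members, with 106 promoters of 300 bases (250 before and 50 after the start). Their median was 24 CG, against 7 over all 32851 promoters in the table, with a median of 21 for higher members, 24 for lower members and 24 for those not past the threshold. The E2F-type letters TTTCCCGC or TTTGGCGC, on either strand, occurred in 6 of 106 member promoters (5.66%), of which 1 belonged to a higher member and 0 to a lower one, and in 1.56% of all promoters in the table. These counts describe the letters and were not tested, and DNA methylation was not measured here.

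Among lysine 4 methyltransferases of histone H3, Setd7, which adds a single methyl group and also modifies other proteins, was the highest, with 0.29, 0.40 and 0.45 and a mean of 0.38 ± 0.084 (adjusted p = 0.00017). Its probes disagreed, and the mean over its 3 tested probes was 0.096, not past the threshold (adjusted p = 0.062). Setd1a, a catalytic subunit of COMPASS, was higher at 0.12 ± 0.059 (adjusted p = 0.022) and turned to -0.033 with the tested genes' median at 0 without loess. Its relative Setd1b at -0.10, Kmt2a (Mll1) at 0.11, Kmt2c (Mll3) at 0.0040 (95% interval -0.071 to 0.079) and Kmt2e (Mll5) at -0.0011 were not past the threshold. The Kmt2c value is that of its brightest probe. In the fit over all probes, 2 of its 5 tested probes were lower and 0 higher, and the lowest stood at -0.26.

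The lysine 9 methyltransferases of histone H3 had 2 of 6 tested members higher and 2 lower, against 22.5% and 25.5% of all tested genes. Ehmt2 (also known as G9a) and its partner Ehmt1 (GLP), which act as a pair, were both higher. Ehmt2 had 0.33, 0.29 and 0.24 with a mean of 0.28 ± 0.044 (adjusted p = 0.00033), and Ehmt1 0.12, 0.22 and 0.11 with a mean of 0.15 ± 0.063 (adjusted p = 0.011). Neither kept its sign with the tested genes' median at 0 and no loess, at -0.0051 and -0.074. The heterochromatin enzymes Suv39h1 and Suv39h2 were both lower. Suv39h1 had -0.13, -0.10 and -0.11 with a mean of -0.11 ± 0.014 (adjusted p = 0.022), and Suv39h2 -0.20, -0.19 and -0.048 with a mean of -0.15 ± 0.086 (adjusted p = 0.018), with its second tested probe at -0.35, and at 0.012 in that setting. Setdb1, the KAP1-linked silencer of retroelements, had 0.057, -0.22 and -0.25 and was not past the threshold, nor was Setdb2 at -0.077.

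Of the remaining SET proteins, Kmt5a (Setd8), the enzyme of monomethyl lysine 20 on histone H4 that is tied to the cell cycle, was higher, with 0.30, 0.21 and 0.17 and a mean of 0.23 ± 0.069 (adjusted p = 0.0017). All 3 of its probes were higher, and without loess it stood at 0.060 with the tested genes' median at 0 and at -0.20 with all spots' median at 0. Kmt5b (Suv420h1) at 0.032 and Kmt5c (Suv420h2) at -0.095, which add the further methyl groups, were not past the threshold. Setd2, which adds the last methyl group to lysine 36 of histone H3, stood at -0.0033 with an SD of 0.0097 (95% interval -0.076 to 0.069). Setd5, a gene of intellectual disability, had -0.30, -0.19 and -0.24 and a mean of -0.25 ± 0.055 (adjusted p = 0.00083) by its brightest probe, with disagreement among its 5 probes. Setd3, an actin histidine methyltransferase, was lower at -0.095 ± 0.0063, and Setd4 was at -0.025. By probe, 1 of 3 tested probes of Setd3 was lower and 0 higher, and the highest stood at 0.11.

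The SMYD family, SET proteins interrupted by a zinc-binding MYND domain, had 3 of 5 members higher and 0 lower with loess. Over all tested genes, 22.5% were higher and 25.5% lower. Smyd3 had 0.23, 0.34 and 0.26 with a mean of 0.28 ± 0.058 (adjusted p = 0.00048), and both tested probes were higher. Smyd2, which methylates p53 among other proteins, was at 0.14 ± 0.039, and the muscle gene Smyd1 at 0.11 ± 0.036. These 2 were below 0 in both settings without loess, at -0.13 and -0.042 with the tested genes' median at 0. With loess, the second tested probe stood at -0.0012 for Smyd2 and at -0.0011 for Smyd1. Smyd4 at 0.070 and Smyd5 at -0.073 were not past the threshold.

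Jarid2, a DNA-binding cofactor of Polycomb repressive complex 2 that has lost demethylase activity, was the lowest of all members. Its brightest probe, on chromosome 13, 44370473 to 44370532 (mm7), had -0.51, -0.42 and -0.48, a mean of -0.47 ± 0.047 (SD, n = 3, adjusted p = 2.3e-05), or 1.39-fold lower in the RNA labelled KO. Log2 intensities, rebuilt from the loess ratios, were 9.70, 9.71 and 9.62 for labelled KO and 10.2, 10.1 and 10.1 for labelled WT. A second probe gave -0.40, -0.43 and -0.39 (mean -0.41), and its remaining probe was too dim to test.

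The demethylases with a JmjC domain stayed nearer 0. Kdm8 (Jmjd5) was lower, with -0.18, -0.22 and -0.23 and a mean of -0.21 ± 0.029 (adjusted p = 0.0012), and Kdm6b (Jmjd3), a lysine 27 demethylase of histone H3 known from neural differentiation, was lower at -0.10 ± 0.012 (adjusted p = 0.034). Higher with loess were Kdm4b (Jmjd2b) at 0.13 ± 0.046, Kdm5a (Jarid1a) at 0.13 ± 0.10 by both tested probes, and Kdm3b (Jmjd1b) at 0.10 ± 0.043, of which Kdm4b had the smallest adjusted p, 0.013. All 3 were below 0 with centring on all spots, at -0.045, -0.26 and -0.22. Kdm5c (Jarid1c) at 0.082, Kdm5b (Jarid1b) at 0.079, Kdm3a (Jmjd1a) at 0.082, Kdm4a (Jmjd2a) at 0.046, Kdm4c (Jmjd2c) at 0.019 and Jmjd1c at 0.0012 were not past the threshold. By probe, 1 of 2 tested probes of Kdm5c was higher, and the highest stood at 0.18. Kdm4d (Jmjd2d), a testis gene, and Jmjd4 were too dim to test.

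The BAF complex is built around one of a pair of ATPases, Smarca2 (BRM) and Smarca4 (BRG1). Smarca2 was lower, with -0.25, -0.27 and -0.32 and a mean of -0.28 ± 0.038 (adjusted p = 0.00033), and both of its tested probes were lower. Smarca4 had -0.077, -0.11 and 0.0091 and a mean of -0.059 (95% interval -0.14 to 0.025), not past the threshold. By probe, 1 of its 3 tested probes was lower, and the lowest stood at -0.22. Among core subunits, Smarce1 at 0.16 ± 0.043 and Smarcc1 at 0.13 ± 0.10 were higher with loess but at -0.12 and -0.14 with the tested genes' median at 0, and Smarcb1 was lower at -0.12 ± 0.051. The second tested probe of Smarce1 stood at -0.10 with loess. Smarcc2 at 0.032, Smarcd1 at -0.060, Smarcd2 at -0.070 and Smarcd3 at -0.092 were not past the threshold.

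The partners of these subunits that the naming rule did not match leaned one way. Of 15 tested BAF and PBAF partners, 9 were lower and 0 higher, with a median of -0.15 against -0.011 for all tested genes, where 25.5% were lower. The counts ran from 6 to 11 lower and 0 higher over all alternatives run. The 2 lowest were Dpf1 at -0.26 ± 0.083 (adjusted p = 0.0011) and Bcl11a at -0.20 ± 0.030. Looked up after the values had been seen, the subunits known from progenitors, Actl6a at -0.18, Ss18 at -0.16, Dpf2 at -0.16 and Phf10 at -0.10, were lower. The neuronal counterparts Dpf1 and Dpf3, at -0.18, were lower too, although Dpf3 stood at 0.15 without loess and with the tested genes' median at 0. Ss18l1 stood at -0.0040, and Actl6b was not among the tested genes. Of the genes of dividing cells 9 of 10 were lower, with a median of -0.29 and a summed intensity of 58930 to 65520 for labelled KO against 77765 to 87108 for labelled WT. Fibroblast genes had 6 of 7 lower with a median of -0.36 (summed intensity 152153 to 155902 against 202345 to 221267). Col1a1 and Col3a1 were saturated for labelled WT on all 3 arrays, so these WT sums are floors and the ratio of Col3a1, the member of that list not past the threshold, carries no reading. The NSC markers had 6 of 10 lower and 2 higher, with a median of -0.16 (55221 to 56585 against 63788 to 66738). The part of these 3 marker lists in the BAF values was not tested.

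Outside BAF, the ATPase Smarcad1, which acts at replicating heterochromatin, was lower, with -0.41, -0.21 and -0.40 and a mean of -0.34 ± 0.11 (adjusted p = 0.0006), by both tested probes. Array 2 lay apart from the other 2. The ISWI ATPase Smarca1 (SNF2L) was higher with 0.21, 0.18 and 0.12 and a mean of 0.17 ± 0.043 by both probes, but at -0.0092 with the tested genes' median at 0 and no loess, and its relative Smarca5 (SNF2H) was at -0.021, not past the threshold. Hltf (Smarca3) at 0.074 and Smarcal1 at 0.043, both of replication fork repair, were also not past it. Of 21 ISWI, INO80 and SRCAP partners, 2 were higher (Bptf at 0.19, Srcap at 0.15) and 5 lower, with 14 in between. The shares over all tested genes were 22.5% higher and 25.5% lower. The lowest partners were Yeats4 at -0.29 and Cecr2 at -0.21. Cecr2 stood at 0.073 without loess and with the tested genes' median at 0.

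The CHD remodellers, most of which carry paired chromodomains, had 3 of 9 members higher and 4 lower, against 22.5% and 25.5% of all genes. Chd7, mutated in CHARGE syndrome, had -0.39, -0.30 and -0.31 with a mean of -0.33 ± 0.050 (SD, n = 3, adjusted p = 0.00016), or 1.26-fold lower in the RNA labelled KO. Its close relative Chd8, an autism gene, went the other way with loess, at 0.19, 0.29 and 0.30 and a mean of 0.26 ± 0.063 (adjusted p = 0.00071). Chd7 was read by 1 tested probe, and both tested probes of Chd8 were higher. Without loess, with the tested genes' median at 0, Chd7 stood at -0.47 and Chd8 at 0.042. Chd8 was at -0.22 and Chd7 at -0.73 with centring on all spots. Among the others, Chd1l was lower at -0.15 ± 0.040, Chd6 at -0.12 ± 0.015 and Chd9 at -0.12 ± 0.089. Of 5 tested probes of Chd9, 2 were lower and 0 higher, and the highest stood at 0.018. Of the NuRD ATPases, Chd3 was higher at 0.16 ± 0.018 (adjusted p = 0.0045) and Chd4 at 0.091 was not past the threshold (adjusted p = 0.052). Chd3 turned to -0.12 with the tested genes' median at 0. The neural gene Chd5 was higher at 0.11 ± 0.059, and Chd1 was at -0.017.

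Of 25 tested corepressor and NuRD, Sin3 and CoREST partners, 7 were higher and 9 lower, and 9 did not pass. For this and the next 2 lists, the shares over all tested genes were 22.5% higher and 25.5% lower. Rcor2, a CoREST subunit of stem and neural progenitor cells, was lower at -0.46 ± 0.049 and its relative Rcor3 higher at 0.28 ± 0.12, and the remodeller Atrx was higher at 0.20. The acetyltransferases, which oppose the deacetylases, had 2 of 12 higher (Kat8 at 0.17, Taf1 at 0.11) and 2 lower (Kat5 at -0.19, Kat6b at -0.10). Averaging all tested probes of Taf1 gave -0.038. Of 14 genes of the COMPASS core and other lysine methyltransferases, 2 were higher (Nsd1 at 0.14, Cxxc1 at 0.11), and 3 were lower, the lowest being Nsd2 at -0.14 and Rbbp5 at -0.12. With centring on all spots, Rcor3, Kat8, Taf1, Bptf, Srcap, Nsd1 and Cxxc1 were below 0, and Atrx was at -0.030.

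Bromodomain proteins read acetylated histones. Brd8, of the NuA4 acetyltransferase complex, had -0.11, -0.23 and -0.21 with a mean of -0.19 ± 0.066 (adjusted p = 0.0043) by its brightest probe. Brd2 at 0.0022, Brd3 at 0.078 and Brd7 at 0.064 were not past the threshold, although 1 of 3 tested probes of Brd3 was higher, with the highest at 0.15. The ING proteins, which read methylated lysine 4 of histone H3, had 1 of 5 lower, Ing2 at -0.13 ± 0.019 (adjusted p = 0.01). Over all tested genes, 25.5% were lower. Ing1 at -0.053, Ing3 at -0.034, Ing4 at 0.067 and Ing5 at -0.037 were not past the threshold. These values are by the brightest probe. For Ing2, 1 of 3 tested probes was lower, and the highest stood at 0.088. For Ing4, 1 of 2 was higher, with the highest at 0.23. For Ing5, 2 of 3 were lower, with the lowest at -0.29.

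Probes gave a check within genes, since 57 members had several tested probes. In a fit over all 26628 tested probes, in which 44.3% of probes were past the threshold, 13 of the 57 had every tested probe past it in the same direction, among them Jarid2, Sirt2, Sirt1, Prmt6, Smarca2, Smarcad1, Chd8 and Kmt5a. In 4 of the 57, Setd7, Setd5, Prmt3 and Brd8, probes were called in opposite directions. The other 40 fell in neither group, with some or all of their probes not past the threshold. The like shares over all genes with several tested probes were not computed. For Setd7, neighbouring probes on chromosome 3 at 51640063 to 51640004 and 51639997 to 51639938 (mm7) gave means of 0.38 and 0.16, while a dimmer probe at 51645246 to 51645187 gave -0.20, -0.38 and -0.18 (mean -0.25, adjusted p = 0.0027). For Prmt3, the probe at 46003045 to 46003104 of chromosome 7 was at -0.22 and the probe at 46081742 to 46081801 at 0.17. For Setd5 the brightest probe, at 113314266 to 113314325 of chromosome 6, was at -0.25, and the probe at 113274483 to 113274542 at 0.15. Averaging all tested probes left Setd5 at -0.033 and Brd8 at 0.014, neither past the threshold. Which exon each of these probes reads was not analysed here.

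**Figure D4:**
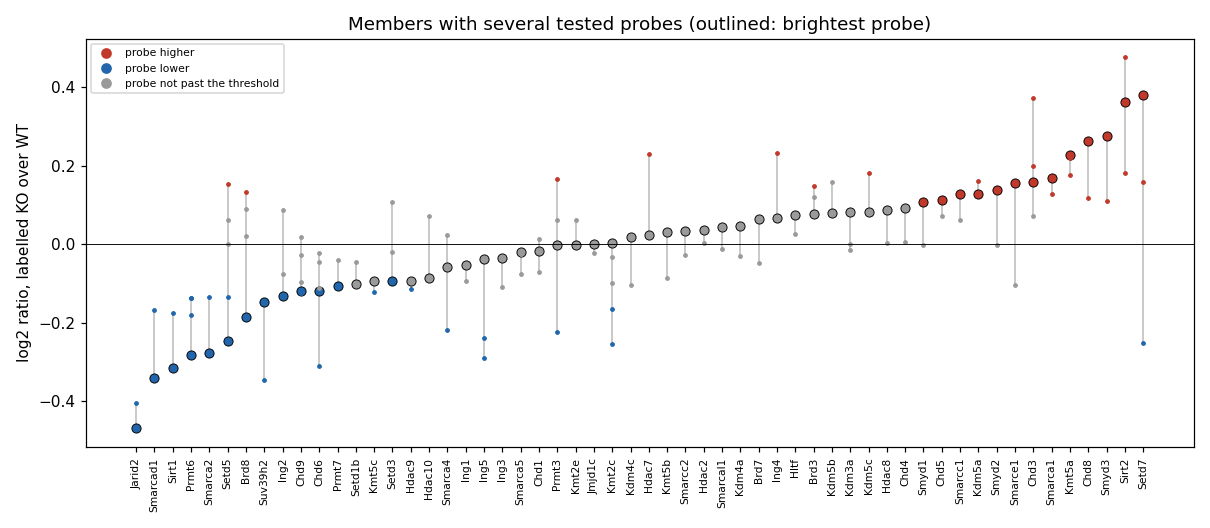
Mean log2 ratio over 3 arrays (labelled KO over labelled WT, after loess) of every tested probe for 56 of the 57 members with several tested probes, ordered by the brightest probe, which is outlined and stands for the gene; colours give each probe's call in the fit over all probes. Both probes of Jarid2 lie below -0.40, while the probes of Setd7 run from -0.25 to 0.38; the direction of probes above 0 depends on loess, as stated for the higher members.

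On the X chromosome lay 5 tested members, of which Hdac6 and Smarca1 were higher, Suv39h1 lower and Hdac8 and Kdm5c not past the threshold. Over all 619 tested X-linked genes, 20.7% were higher and 28.3% lower. Every tested member's probe stood well above background for both RNAs on each of the 3 arrays, so no member's ratio is a bound.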

How the data were processed

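The members and gene lists were chosen with earlier results of these data known. Per the file headers, the authors' scanner files came from Agilent Feature Extraction 9.5.3.1, with probe positions on mm7, and hold raw spot and background intensity values. The deposited processed signals (intensity after background and dye correction), the scanner's log10 ratio of red over green and the authors' value table served as alternatives or checks. That deposited table correlated with the scanner's red over green ratio at -0.998, -0.996 and -0.992, so its log2 values were read with the KO label over the WT label, and how it was centred is unknown (column medians 0.0276).

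Background was corrected with limma 3.58.1 (R 4.3.3, normexp, offset 50, which draws dim ratios toward 0), fitted on spots without the scanner's outlier marks, a choice made with earlier results known (fitted background means of -4.66 to 1.04 per array, against -489 to -167 on all spots). Loess within each array followed, without control spots. Channel intensities given in the text were rebuilt from the loess ratios after mean brightness was made alike between arrays (limma, Aquantile). Marked spots (170, 173 and 242) were left out. A probe was tested if well above background in 1 channel on all 3 arrays, and the brightest probe stood for its gene. Of 41174 probes, 22951 were named through the accession and 9768 through the symbol or synonym. Each mean was tested against 0 with lmFit and eBayes over 18035 genes with Benjamini-Hochberg adjustment at 0.05. A run on ratios simulated from the fit's own noise model checked the code only, since it held no dye or scaling effect. Median spot signals were 75.7 to 105 against backgrounds of 39.5 to 43, and the number of arrays limits the precision. Each array, SD and adjusted p were due for the 12 highest and 12 lowest past the threshold, and for other lists the 2 highest and 2 lowest were named. One rule match was on the Y chromosome and was left out. Values of 1 member and of 1 partner gene are not reported here, although they enter the counts.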

Additional observations from a re-analysis of the deposited data

How the results depend on the processing

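With each array centred on the median of its spots, where all genes had a median of -0.26, 0 members were higher and 70 lower (75.3%, against 52.0% of all genes), 14 were at least 1.5-fold (15.1% against 14.7%), and the members' median was -0.36. With the tested genes' median at 0 and no loess (chosen after seeing the data), 13 were higher (14.0%, against 33.5% of all genes), 36 lower (38.7% against 31.4%) and 1 at least 1.5-fold (5.18% of all genes were), with a median of -0.10. Lower members numbered 15 with the scanner's processed signals and 14 with the authors' table, and 11 to 20 with 1 array left out; the fewest were without replicate 3, where 11 of the 23 calls were kept. The higher members numbered 17 to 26 under the alternatives with loess or the scanner's normalization, and their count moved by under 1.5 times. The cause of these differences was not tested. Of the 48 calls, 18 were lost with the authors' table, 12 with normexp fitted on all spots (17 higher, 21 lower) and 19 without replicate 3. With all tested probes averaged, 20 of the 25 higher and 17 of the 23 lower calls were kept. The next lists give log2ratios of genes whose sign turned and that were called with loess by the brightest probe or in the setting named. Genes whose sign turned without a call in either are left out. With the median of all spots at 0: Brd2 -0.55, Arid2 -0.48, Brd7 -0.47, Ing4 -0.43, Kdm4a -0.43, Kmt2c -0.42, Prmt5 -0.42, Hdac7 -0.41, Brd3 -0.41, Sirt7 -0.41, Smarcc1 -0.40, Smyd2 -0.39, Smarce1 -0.38, Chd3 -0.38, Kdm5c -0.36, Chd4 -0.36, Kdm4c -0.34, Kdm3a -0.34, Ehmt1 -0.33, Smarcal1 -0.33, Kat8 -0.32, Bptf -0.32, Smyd1 -0.30, Hdac4 -0.30, Setd1a -0.29, Kmt2a -0.29, Smarcc2 -0.29, Kdm5b -0.28, Jmjd1c -0.27, Smarca1 -0.27, Hdac1 -0.27, Ehmt2 -0.27, Kdm5a -0.26, Srcap -0.26, Hdac2 -0.25, Hltf -0.25, Cxxc1 -0.24, Taf1 -0.23, Kdm3b -0.22, Chd8 -0.22, Kmt5a -0.20, Nsd1 -0.18, Hdac5 -0.16, Sirt4 -0.16, Hdac6 -0.16, Smyd3 -0.12, Prmt2 -0.084, Rcor3 -0.068, Setd7 -0.065, Sirt2 -0.049, Kdm4b -0.045, Atrx -0.030. With the tested genes' median at 0: Brd2 -0.29, Arid2 -0.22, Brd7 -0.21, Ing4 -0.17, Kmt2c -0.16, Prmt5 -0.15, Hdac7 -0.15, Smarcc1 -0.14, Smyd2 -0.13, Smarce1 -0.12, Chd3 -0.12, Ehmt1 -0.074, Kat8 -0.061, Bptf -0.056, Smyd1 -0.042, Setd1a -0.033, Smarca1 -0.0092, Hdac1 -0.0082, Ehmt2 -0.0051, Suv39h2 0.012, Cecr2 0.073, Dpf3 0.15, Smarcd1 0.20, Hdac9 0.22, Setdb2 0.23. With all tested probes averaged: Arid2 -0.12, Kmt2c -0.11, Taf1 -0.038, Brd8 0.014. No member lacked a coordinate, so that alternative changed nothing. Each array's ratio already pairs its 2 samples, so the fit against 0 used that pairing and no further paired alternative was run. Dim members such as Sirt6, Setdb2 and Hdac9 have ratios drawn toward 0 by the offset.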
